A study of Mus musculus with 52 samples.

Results

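The gene set described here holds the enzymes of 3 linked pathways of glucose use, with 43 members among the 28786 genes of the deposited table. It comprises 17 genes that run from glucose uptake to lactate, 7 genes of the pyruvate dehydrogenase (PDH) complex and its kinases, 14 genes of the tricarboxylic acid (TCA) cycle and 5 genes of the pentose phosphate pathway. Members were taken by gene symbol with no filter on their levels, and all 43 had reads. The list was chosen with earlier results of these data known. The 52 libraries were made by Smart-seq2, a plate method that reads along the whole length of transcripts and does not count molecules. All were labelled primed HSCs (haematopoietic stem cells), taken from the bone marrow of C57BL/6 mice of genotype Cd4-cre;R26Tdtomato aged 6 to 8 weeks. The transgenes of these animals let Cre, driven from Cd4 sequences, turn on a tdTomato reporter. Neither the sort gate nor the number of animals is given in the sources used here.

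Glycolysis splits glucose into pyruvate in the cytosol. Lactate dehydrogenase turns pyruvate into lactate, while the PDH complex feeds it into the mitochondrial TCA cycle as acetyl-CoA, a step that PDH kinases block. The pentose phosphate pathway branches off from glucose 6-phosphate and supplies NADPH and ribose for nucleotides. Blood stem cells are known for a glycolytic metabolism with active PDH kinases. Red cell precursors are known for a pyruvate kinase of their own, encoded by Pklr, and for mitochondria that supply succinyl-CoA to haem synthesis.

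Cells were sorted into classes by 2 genes outside the set. Cd34 encodes a surface protein of stem and early progenitor cells, and Klf1 encodes a transcription factor of red cell precursors. Levels are in CPM, a gene's reads scaled to a common total for every cell. Of 49 cells kept, 13 were Cd34-positive (Cd34 at 10 CPM or more, Klf1 under 200 CPM) and 33 were Klf1-high (Klf1 at 200 CPM or more, Cd34 under 10 CPM). Cell 2 met both limits, and cells 9 and 34 met neither. The cells nearest the Cd34 limit had 91.0 CPM inside it and 1.66 CPM outside it, and those nearest the Klf1 limit had 402 CPM inside and 197 CPM outside.

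The classes differed in more than these genes. Cd34-positive cells held a median of 835415 reads (424465 to 3989885) and Klf1-high cells 2887968 reads (113234 to 12446477). With every cell thinned to 85519 reads, a median of 4264 genes had a read in Cd34-positive cells and 5930 in Klf1-high cells, and 32 and 36 of the members. The summed level of 10 HSC markers had a median of 2585 CPM in Cd34-positive cells and 470.4 CPM in Klf1-high cells, and 9 erythroid markers summed to 2046 CPM and 13877 CPM. The Klf1-high cells were thus low in HSC markers and high in erythroid ones, so for most of the cells these markers go against the label HSC. The HSC markers include Cd34 and the erythroid ones Klf1, so part of each gap follows from how the classes were made. Klf1 itself reached at most 1648 CPM in a Klf1-high cell. The summed level of 16 mitosis genes had a median of 189 CPM (9.01 to 2008) in Cd34-positive cells and 3428 CPM (204 to 8217) in Klf1-high cells. Megakaryocyte markers (5 genes) summed to a median of 497 CPM (0 to 3000) and 3.29 CPM (0 to 1099), myeloid markers (7 genes) to 987 CPM (338 to 2613) and 169 CPM (46.8 to 690.2), and 5 T cell markers had no read. The part of depth, mitosis genes or other lineages in the differences below was not tested. The labels give 1 group and name no animal, so the cells form 1 sample and no difference carries a test. Values after ± are the SD over cells.

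Cd34-positive cells carried more RNA of glycolysis relative to the other pathways than Klf1-high cells. Summed over 17 genes, the glycolytic level was 8257 ± 2344 CPM in 13 Cd34-positive cells (lowest 5472, median 7840, highest 12527) and 7141 ± 1293 CPM in 33 Klf1-high cells (lowest 4049, median 6969, highest 10006). The log2 ratio of the class means, Cd34-positive over Klf1-high, was 0.21, and the classes overlapped widely. The gap in this sum came from Pkm (means 976 and 75.5 CPM) and Pgam1 (439.7 and 105 CPM), described below. Added up, the gaps of these genes exceeded that of the sum. The rest of the glycolytic genes thus did not sum higher in Cd34-positive cells. Of the 17 genes, 11 had a ratio above 0 and 6 below. The TCA cycle went the other way from the full glycolytic sum. Its 14 genes summed to 2998 ± 1105 CPM in Cd34-positive cells (931, 3277 and 4740) and 4380 ± 574 CPM in Klf1-high cells (3495, 4477 and 5609), a log2 ratio of −0.55, and 8 of 13 Cd34-positive cells lay below the lowest Klf1-high cell. The PDH complex with its kinases summed to 720.5 ± 342.2 CPM (46.5, 738.6 and 1345) and 1056 ± 316 CPM (410.2, 1067 and 1845), a log2 ratio of −0.55. The pentose phosphate genes summed to 1344 ± 492 CPM (542, 1256 and 2095) and 2012 ± 434 CPM (908, 1986 and 3026), a log2 ratio of −0.58. In each of these 3 groups at most 2 of 13 Cd34-positive cells exceeded the Klf1-high median, against 9 of 13 for glycolysis. Over cells of at least 500000 reads the 4 ratios were 0.19, −0.52, −0.54 and −0.58 for glycolysis, TCA cycle, PDH genes and pentose phosphate genes (11 Cd34-positive and 31 Klf1-high cells).

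**Figure D1:**
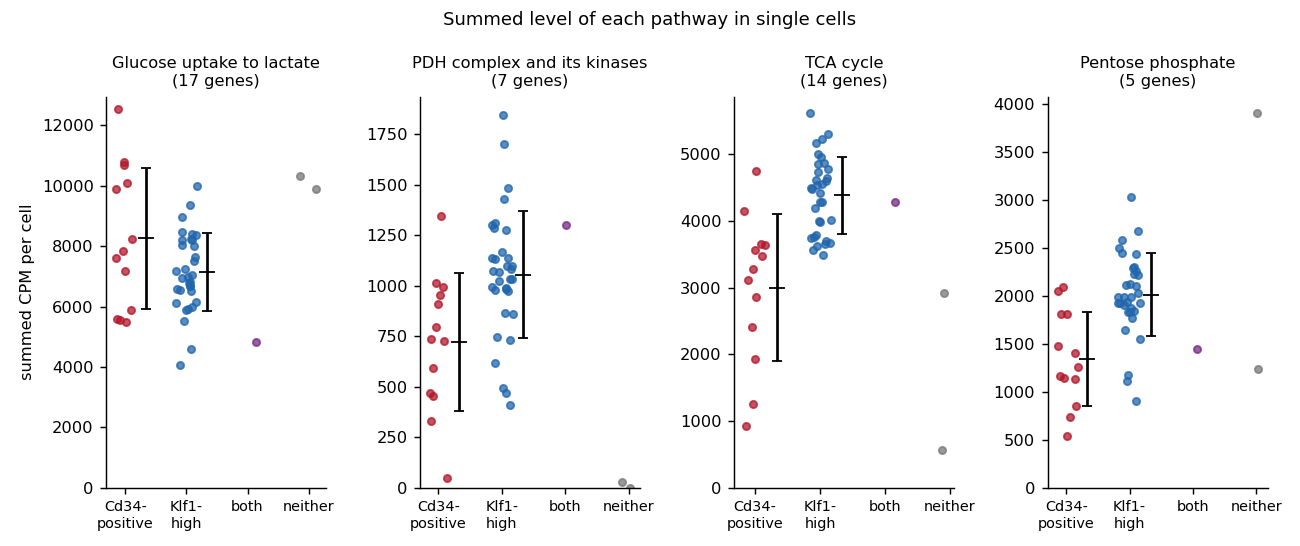
Summed CPM of the members of each pathway (vertical axes, CPM per cell), with 1 point per cell for Cd34-positive, Klf1-high, both and neither cells, and a bar for the mean ± SD. The TCA points of 8 of 13 Cd34-positive cells sit below the lowest Klf1-high cell at 3495 CPM, while the glycolysis points overlap.

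Of the 43 members, 8 were at least 2-fold higher in Cd34-positive cells and 8 at least 2-fold lower. Over the 9940 genes that averaged 5 CPM or more across the class means, 26.3% were as much higher and 19.1% as much lower, so the members' share of 18.6% in each direction was below the background for higher genes and close to it for lower ones. The direction split by pathway. Glycolysis held 7 genes past 2-fold higher and 0 past 2-fold lower of 17, with a median log2 ratio of 0.60 against 0.10 over all genes. Of these 7, Slc2a1, Pfkp and Ldhb were not past 2-fold by medians over cells, and Hk2 was at 0.74 without cell 47. The TCA cycle held 0 higher and 5 lower of 14, with 12 ratios below 0 and a median of −0.40. The PDH group held 0 higher and 2 lower of 7 (median −0.73), and the pentose phosphate group 1 of each of 5 (median −0.69). Gapdh, Ldha and Aldoa, the 3 glycolytic genes with the highest means over the kept cells, had ratios between −0.41 and 0.31. The ratio of the glycolytic sum lay between these, although the largest gains in that sum were those of Pkm and Pgam1.

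**Figure D2:**
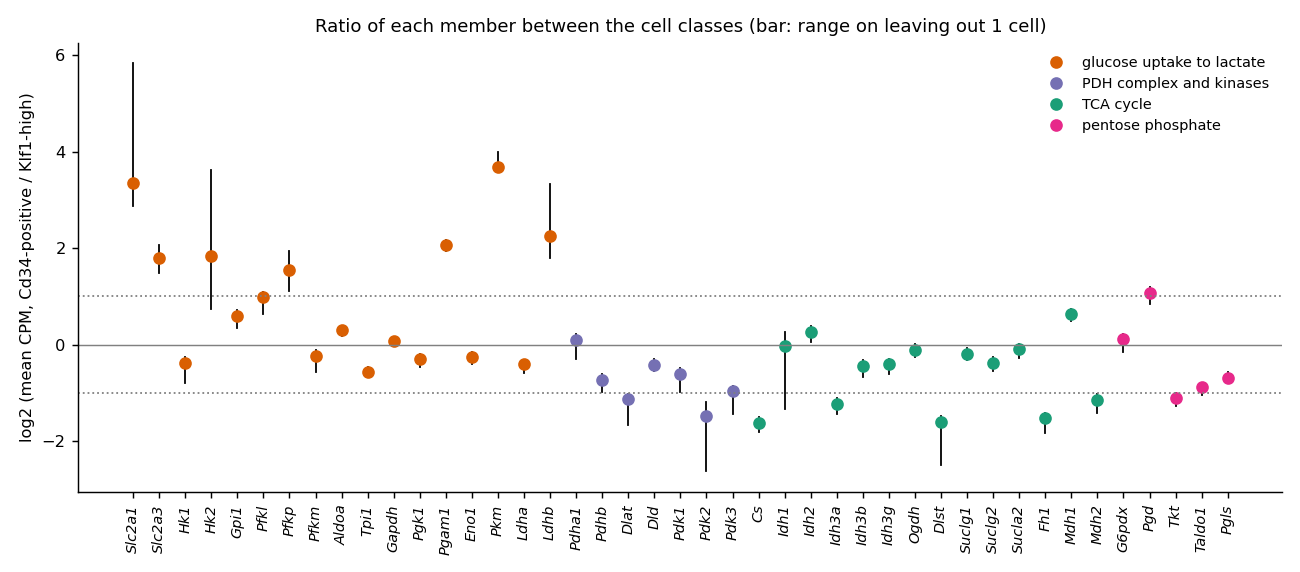
Log2 ratio of mean CPM, Cd34-positive over Klf1-high cells, for the 43 members in pathway order, coloured by pathway (vertical axis, log2). Vertical bars span the ratios obtained on leaving out each cell in turn, and dotted lines mark 2-fold. The points past the upper line are 7 glycolytic genes and Pgd.

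Of the 4 stretches of glycolysis, glucose uptake had the largest ratio (log2 2.07 for the sum of its 2 genes). Slc2a3, which encodes the transporter GLUT3, had a lowest, median and highest level of 0, 109 and 609 CPM in Cd34-positive cells and 0, 17.7 and 319 CPM in Klf1-high cells. Its mean was 177 ± 215 CPM and 50.2 ± 73.8 CPM (log2 ratio 1.80), with 4 of 13 Cd34-positive cells above every Klf1-high cell. The share of cells with at least 10 CPM was alike, at 7 of 13 and 17 of 33. Only 7 of 13 Cd34-positive cells exceeded the Klf1-high median. Slc2a1 (GLUT1, a basal glucose transporter of many cell types) was found in few cells of either class. It had a read in 5 of 13 Cd34-positive cells (mean 56.2 ± 93.6 CPM, highest 250.2) and in 1 of 33 Klf1-high cells (4.57 ± 26.2 CPM, highest 151). The log2 ratio of 3.36 became 5.84 without cell 45, the Klf1-high cell with reads.

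Hexokinase traps glucose in the cell by phosphorylating it. Hk1 was the leading form in most cells, at 241 ± 270.3 CPM in Cd34-positive cells (8.59, 163 and 974.9) and 313 ± 146 CPM in Klf1-high cells (5.27, 334 and 570.1), a log2 ratio of −0.38. Hk2, the inducible form, was low. It had a read in 10 of 13 Cd34-positive cells (0, 7.43 and 233 CPM) and in 8 of 33 Klf1-high cells (0, 0 and 209.9 CPM). Its means were 30.7 ± 63.8 CPM and 7.90 ± 36.8 CPM, a log2 ratio of 1.84. That ratio rests on 2 cells, since it was 0.74 without cell 47 of the Cd34-positive class and 3.62 without cell 36 of the Klf1-high class.

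Phosphofructokinase commits sugar to glycolysis, and its liver-type, muscle-type and platelet-type subunits come from Pfkl, Pfkm and Pfkp. Pfkl averaged 256 ± 291 CPM in Cd34-positive cells (0, 153 and 911) and 129 ± 94.7 CPM in Klf1-high cells (0, 125 and 398), a log2 ratio of 0.98 that lies just short of 2-fold. Pfkm averaged 132 ± 182 CPM (0, 10.4 and 468) and 156 ± 122 CPM (0, 149 and 457), with at least 10 CPM in 7 of 13 and 29 of 33 cells. Pfkp averaged 100.2 ± 139.9 CPM (0, 0.562 and 419) and 33.4 ± 62.3 CPM (0, 0 and 291), a log2 ratio of 1.56. Its value is uncertain because it shares at least 300 bases of transcript with its neighbour Pitrm1, which averaged 113 CPM and 395 CPM. Reads of the pair summed gave a log2 ratio of −1.01. The other upper steps, Gpi1, Aldoa and Tpi1, had ratios between −0.57 and 0.60, and Aldoa was the most abundant of the upper genes per length, at 525.2 and 424 CPM per kb of its longest transcript.

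The largest ratio in the set over all kept cells was that of Pkm, which encodes the M-type pyruvate kinase of the last glycolytic step (ENSMUSG00000032294, chromosome 9, 59656368 to 59679375, plus strand, GRCm38). Its level was 240.1, 1129 and 1748 CPM (lowest, median, highest) in Cd34-positive cells and 0, 0.456 and 574 CPM in Klf1-high cells. All 13 Cd34-positive cells lay above the Klf1-high median by a wide margin, and 9 of them above every Klf1-high cell. Means were 976 ± 493 CPM and 75.5 ± 159 CPM, 12.8-fold higher in Cd34-positive cells (log2 3.67, range 3.58 to 4.003 on leaving out each cell). At least 10 CPM was reached in 13 of 13 Cd34-positive cells (100%, exact interval 75.3 to 100) and 9 of 33 Klf1-high cells (27.3%, 13.3 to 45.5). These intervals treat the cells as independent draws, although they form 1 sample, so they cover only the number of cells counted. Reads copied by PCR from 1 molecule cannot be told from reads of several. With all cells thinned to the same depth, 13 and 11 cells had a read. The table is by gene, so the M1 and M2 splice forms were not told apart here. Cell 2, with both Cd34 and Klf1, had 312 CPM.

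Pklr, the gene of the liver and red cell pyruvate kinase, is not a member and was read beside Pkm because the 2 genes serve the same step. It averaged 39.9 ± 108 CPM in Cd34-positive cells and 99.7 ± 114 CPM in Klf1-high cells (log2 ratio −1.30), and reached 10 CPM in 2 of 13 and 24 of 33 cells. Of the Cd34-positive cells, 11 carried Pkm alone at that level, 2 carried both genes and 0 carried Pklr alone. Of the Klf1-high cells, 2 carried Pkm alone, 17 Pklr alone, 7 both and 7 neither. Pkm held 96.7% of the pyruvate kinase level per kb in the mean of Cd34-positive cells and 47.5% in that of Klf1-high cells, and its median share per cell was 100% and 4.39%. The mean hides a split among Klf1-high cells, of which 24 of the 31 with either gene had Pklr in the lead.

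The 250 bases before each listed transcript start of Pkm, Pklr, Pgam1 and Cs are shown. Pkm and Pgam1 put the most Cd34-positive cells above every Klf1-high cell, Pklr is the counterpart of Pkm, and Cs, described below, had the lowest ratio of the set. They come from RefSeq (GRCm38.p6) and run 5′ to 3′ on the plus strand, on which all 4 genes lie. Capitals mark any match to the core of the hypoxia response element (ACGTG, or CACGT where it lies on the other strand) or to a GATA motif (AGATAA). Of 32851 mouse promoter windows of this length, 16.6% hold the first on either strand and 9.99% the second. The Pkm windows lie at chr9:59656326-59656575 and chr9:59656977-59657226, those of Pklr at chr3:89135892-89136141 and chr3:89136373-89136622, that of Pgam1 at chr19:41911621-41911870 and that of Cs at chr10:128337477-128337726.
Pkm promoter 1: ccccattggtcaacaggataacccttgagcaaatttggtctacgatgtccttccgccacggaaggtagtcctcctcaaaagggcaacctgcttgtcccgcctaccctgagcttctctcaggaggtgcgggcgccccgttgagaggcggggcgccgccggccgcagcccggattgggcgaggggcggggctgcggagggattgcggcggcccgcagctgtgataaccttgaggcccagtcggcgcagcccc
Pkm promoter 2: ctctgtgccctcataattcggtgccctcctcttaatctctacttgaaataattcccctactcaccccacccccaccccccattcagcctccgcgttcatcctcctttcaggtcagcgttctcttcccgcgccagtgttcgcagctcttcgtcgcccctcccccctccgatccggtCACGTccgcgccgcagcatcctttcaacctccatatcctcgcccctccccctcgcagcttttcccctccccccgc
Pklr promoter 1: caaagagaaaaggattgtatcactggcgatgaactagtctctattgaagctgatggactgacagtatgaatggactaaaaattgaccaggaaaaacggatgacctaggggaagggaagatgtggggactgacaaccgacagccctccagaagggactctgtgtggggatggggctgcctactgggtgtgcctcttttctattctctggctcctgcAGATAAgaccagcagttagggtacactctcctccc
Pklr promoter 2: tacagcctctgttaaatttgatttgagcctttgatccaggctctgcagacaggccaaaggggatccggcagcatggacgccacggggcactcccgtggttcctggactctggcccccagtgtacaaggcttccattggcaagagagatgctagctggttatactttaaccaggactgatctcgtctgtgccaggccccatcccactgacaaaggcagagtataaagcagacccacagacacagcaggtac
Pgam1 promoter: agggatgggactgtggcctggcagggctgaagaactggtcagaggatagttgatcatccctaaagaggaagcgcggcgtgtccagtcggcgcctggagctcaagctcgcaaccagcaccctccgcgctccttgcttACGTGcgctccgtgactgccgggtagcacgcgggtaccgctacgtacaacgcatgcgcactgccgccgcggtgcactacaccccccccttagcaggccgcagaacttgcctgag
Cs promoter: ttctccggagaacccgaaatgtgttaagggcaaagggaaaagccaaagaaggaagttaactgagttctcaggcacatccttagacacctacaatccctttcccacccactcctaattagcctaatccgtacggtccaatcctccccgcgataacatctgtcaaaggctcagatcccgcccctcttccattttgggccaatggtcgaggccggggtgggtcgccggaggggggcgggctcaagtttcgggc
The downstream Pkm window and the Pgam1 window each held 1 match to ACGTG and the upstream Pklr window 1 to AGATAA. The upstream Pkm, downstream Pklr and Cs windows held no match to either. Other spellings of both motifs were not searched. For the hypoxia response core these include GCGTG, which the Pgam1 window holds unmarked. For GATA they include TGATAA, which the upstream Pkm window holds unmarked. A match is a run of letters and no sign of binding. Over the set, 41 members had a RefSeq promoter, and 21 of their 60 windows (35%) held ACGTG. It was present in 4 of 9 windows of the members 2-fold higher in Cd34-positive cells and in 1 of 8 windows of those 2-fold lower. Member windows had a median of 61% G and C bases against 52.4% for all windows, and the shares were not matched for this. CACGTG, the E-box that contains the same core, was in 10% of member windows and 6.02% of all, AGATAA in 6.67% and 9.99%, and the KLF1 motif CCACACCC in 6.67% and 3.20%.

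**Figure D3:**
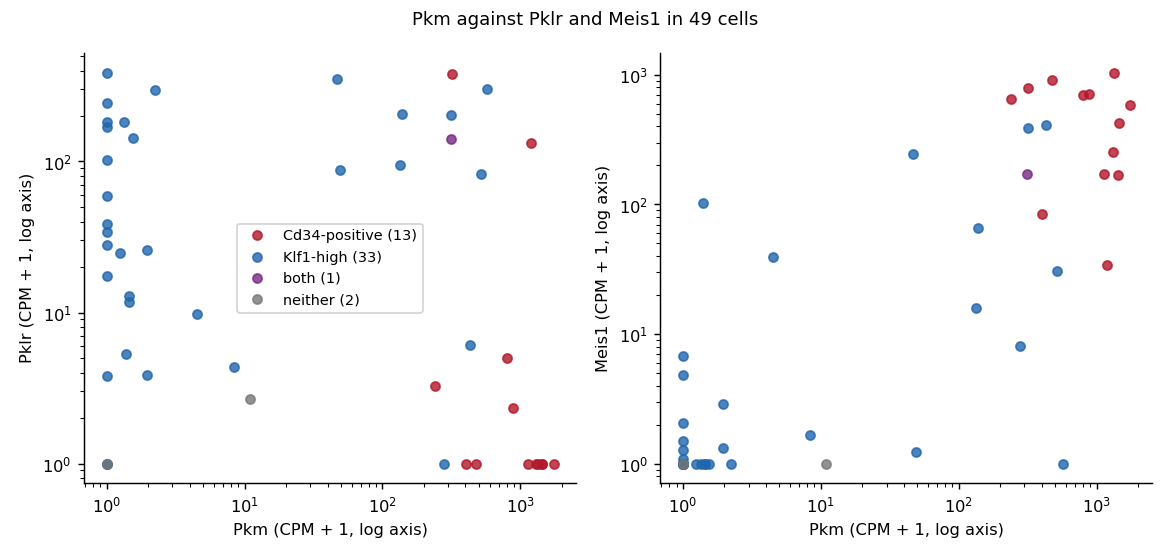
Pkm level in each of 49 cells (horizontal axes, CPM + 1, log scale) against Pklr (left) and Meis1 (right), coloured by class. The 13 Cd34-positive cells sit at 240.1 CPM of Pkm or more, while the Klf1-high cells spread from 0 to 574 CPM.

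Among Klf1-high cells, those with Pkm were more often those that also carried Meis1, a homeobox gene of HSCs. Meis1 reached 10 CPM in 6 of the 9 Klf1-high cells with at least 10 CPM of Pkm, and in 2 of the 24 others. Over all 49 cells, Pkm correlated with Cd34 (Spearman rho 0.77), Meis1 (0.74) and Klf1 (−0.60), and over the 33 Klf1-high cells its rho with Meis1 was 0.50. Its rho with total reads was −0.39 over all cells and −0.35 within Klf1-high cells. The cells share a depth gap and a class split, so these values describe the cells and were not tested.

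Pgam1, the phosphoglycerate mutase of the payoff phase of glycolysis (ENSMUSG00000011752, chromosome 19, 41911923 to 41918660), was the other gene for which most Cd34-positive cells lay above every Klf1-high cell. It had 0, 486 and 892 CPM in Cd34-positive cells and 0, 105 and 307 CPM in Klf1-high cells. Of the 13 Cd34-positive cells, 9 exceeded every Klf1-high cell, although 2 had no read. Means of 439.7 ± 297 CPM and 105 ± 77.9 CPM gave a log2 ratio of 2.06, or 2.05 with its near-identical copies added. The remaining steps between triose and pyruvate did not share this pattern. Gapdh, the most abundant lower-glycolysis gene per length (1203 and 1147 CPM per kb), averaged 1708 ± 699 CPM in Cd34-positive cells (599.9, 1656 and 2657) and 1628 ± 465 CPM in Klf1-high cells (1003, 1562 and 2514). Its log2 ratio was 0.07, and 54 of its 103 near-identical copies also held reads, 75.9 CPM and 31.2 CPM in sum. Pgk1 (log2 ratio −0.30) and Eno1 (−0.26) were slightly lower in Cd34-positive cells, within the spread over cells.

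Lactate dehydrogenase closes fermentative glycolysis. Ldha, the form that favours lactate, averaged 1683 ± 974 CPM in Cd34-positive cells (464, 1611 and 4099) and 2240 ± 646.6 CPM in Klf1-high cells (754, 2259 and 3438). Its log2 ratio was −0.41, with 11 of 13 Cd34-positive cells at or below the Klf1-high median. Ldhb, the form that favours pyruvate, was rare. It had a read in 6 of 13 Cd34-positive cells and 5 of 33 Klf1-high cells, with means of 49.5 ± 83.2 CPM and 9.55 ± 35.4 CPM and highest levels of 219 and 187 CPM. The log2 ratio of 2.26 became 3.33 without Klf1-high cell 15.

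At the entry of pyruvate into mitochondria, most genes were lower in Cd34-positive cells. Dlat, the acetyltransferase core (E2) of the PDH complex, had 0, 2.09 and 310.4 CPM in Cd34-positive cells and 0, 148 and 277 CPM in Klf1-high cells. It reached 10 CPM in 5 of 13 and 32 of 33 cells, with means of 65.0 ± 106 CPM and 144 ± 79.3 CPM (log2 ratio −1.14, or −0.98 with median-ratio size factors and −0.99 over cells with a title code starting with Y). Pdhb, the E1 beta subunit and the most abundant gene of the group per length (110 and 182 CPM per kb), had a ratio of −0.73, Pdha1 (E1 alpha) 0.10 and Dld (E3) −0.41. The mean of Pdha1 among Cd34-positive cells, 258 ± 328 CPM against 241 ± 154 CPM in Klf1-high cells, leaned on 2 high cells. Its medians were 178 and 217 CPM, it reached 10 CPM in 7 of 13 and 31 of 33 cells, and its ratio was −0.30 without cell 33.

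The PDH kinases, which switch the complex off, were not higher in Cd34-positive cells. Pdk3 led the family in both classes with 62.0% and 61.7% of its level per kb, and averaged 72.7 ± 109.8 CPM (0, 26.6 and 322) and 144 ± 77.4 CPM (39.7, 129.6 and 357). Of the Cd34-positive cells, 8 lay below the lowest Klf1-high cell. Pdk1, the kinase known as a target of hypoxia factors, averaged 71.98 ± 111 CPM and 111 ± 99.1 CPM (log2 ratio −0.61), with at least 10 CPM in 5 of 13 and 25 of 33 cells. Pdk2 had a read in 3 of 13 and 22 of 33 cells, with means of 16.2 ± 40.2 CPM and 46.9 ± 71.6 CPM. Its log2 ratio of −1.48 became −2.63 without cell 41 and −0.48 where reads were pooled over the cells of a class. Pdk4, known from fasting and from quiescent stem cells, had no read in any kept cell.

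The TCA cycle held 5 of the 8 members at least 2-fold lower in Cd34-positive cells, and they lie at the entry, in the oxidative part and at the last step of the cycle. Cs (citrate synthase, ENSMUSG00000005683, chromosome 10, 128337734 to 128362479), which joins acetyl-CoA to oxaloacetate, had 0, 108 and 396 CPM in Cd34-positive cells and 137, 479.7 and 999 CPM in Klf1-high cells. No Cd34-positive cell reached the Klf1-high median, 7 of 13 lay below the lowest Klf1-high cell, and 18 of 33 Klf1-high cells lay above the highest Cd34-positive cell. Means were 159 ± 169 CPM and 489 ± 225 CPM, 3.07-fold lower in Cd34-positive cells (log2 −1.62). At equal depth Cs had a read in 8 of 13 Cd34-positive cells and in 33 of 33 Klf1-high cells.

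Idh3a, the catalytic alpha subunit of the NAD-dependent isocitrate dehydrogenase, had 0, 101 and 376 CPM in Cd34-positive cells and 99.6, 328 and 744 CPM in Klf1-high cells (log2 ratio −1.23, just short of 2-fold with median-ratio size factors). The beta and gamma subunits did not share its size of difference, with ratios of −0.44 for Idh3b and −0.41 for Idh3g. Dlst, the succinyltransferase (E2) of the 2-oxoglutarate dehydrogenase complex that makes succinyl-CoA, had 0, 6.18 and 698 CPM in Cd34-positive cells and 0, 316 and 718 CPM in Klf1-high cells. Only 1 of 13 Cd34-positive cells exceeded its Klf1-high median. Means of 106 ± 200.4 CPM and 324 ± 195 CPM gave a log2 ratio of −1.60, or −2.49 without cell 21, the Cd34-positive cell with its highest level, and −0.72 where reads were pooled over the cells of a class. Ogdh, the E1 of the same complex, had a ratio of −0.11.

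Fh1 (fumarate hydratase) had 0, 18.8 and 191 CPM in Cd34-positive cells and 0.988, 164 and 327 CPM in Klf1-high cells. Means of 55.8 ± 70.2 CPM and 162 ± 79.5 CPM gave a log2 ratio of −1.52, and 4 of 13 Cd34-positive cells had no read against 0 of 33 Klf1-high cells. Mdh2, the mitochondrial malate dehydrogenase and the most abundant TCA gene per length in Klf1-high cells (231 and 512 CPM per kb), had 0, 324 and 1037 CPM in Cd34-positive cells and 309, 719 and 1214 CPM in Klf1-high cells. Its log2 ratio was −1.14 (−0.70 with pooled reads, −0.99 with thinned cells or median-ratio size factors), and 5 of 13 Cd34-positive cells lay below the lowest Klf1-high cell. Mdh1, the cytosolic form, went the other way, at 342.3 ± 215 CPM (31.6, 351 and 750.98) and 221 ± 114 CPM (0.905, 229.98 and 478), a log2 ratio of 0.63. In Cd34-positive cells the most abundant TCA gene per length was Idh3g, at 272 CPM per kb against 361 CPM per kb in Klf1-high cells.

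The other TCA genes differed little. Idh2, the mitochondrial NADP-dependent form, averaged 447 ± 378 CPM in Cd34-positive cells and 374 ± 230.2 CPM in Klf1-high cells (log2 ratio 0.26). Idh1, its cytosolic counterpart, had a read in 3 of 13 and 10 of 33 cells, with means of 22.9 ± 57.6 CPM and 23.5 ± 47.5 CPM. Its ratio of −0.04 became −1.34 without cell 7. The succinyl-CoA ligase genes Suclg1, Suclg2 and Sucla2 had ratios of −0.19, −0.38 and −0.10.

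The pentose phosphate genes went in different directions. Pgd, the second dehydrogenase of the oxidative branch, which yields NADPH, had 3.59, 272 and 785 CPM in Cd34-positive cells and 0, 132 and 362 CPM in Klf1-high cells. Means of 284 ± 226 CPM and 135 ± 103 CPM gave a log2 ratio of 1.07, which was 0.84 without cell 27, 0.90 without cell 7 and 0.77 over cells with a title code starting with Y. G6pdx, the first dehydrogenase of that branch, had a ratio of 0.11, and Pgls, which acts between the dehydrogenases, one of −0.69. Both genes of the non-oxidative branch in the set had ratios below 0. Tkt (transketolase) had 7.86, 426 and 999.6 CPM in Cd34-positive cells and 250.03, 942 and 1502 CPM in Klf1-high cells. Only 1 of 13 Cd34-positive cells exceeded the Klf1-high median, and 15 of 33 Klf1-high cells lay above the highest Cd34-positive cell. Means were 441 ± 257 CPM and 955 ± 268 CPM, a log2 ratio of −1.11, which was −0.9985 without cell 51 and −0.94 with median-ratio size factors. Taldo1 (transaldolase), with a ratio of −0.88, averaged 232 ± 137 CPM and 429 ± 129.997 CPM. Per length, Pgls led the pathway in Cd34-positive cells (186 CPM per kb) and Taldo1 in Klf1-high cells (315 CPM per kb).

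Isoenzyme choice was compared as the share of each gene in its set, per kb of the longest protein-coding transcript. Of 13 sets, pyruvate kinase differed most, as given above. Malate dehydrogenase followed, with Mdh2 at 58.9% in Cd34-positive cells and 83.1% in Klf1-high cells. Mdh2 led Mdh1 in 8 of 13 and 33 of 33 cells. Phosphofructokinase leaned to Pfkl in Cd34-positive cells (49.5%, with Pfkm at 33.1% and Pfkp at 17.4%) and to Pfkm in Klf1-high cells (55.8%, with Pfkl at 35.8% and Pfkp at 8.34%), subject to the shared reads of Pfkp.

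Glucose transport was mainly by Slc2a3 in both classes (72.2% and 90.05%). Hk1 held 80.6% and 98.1% of hexokinase, and the rest in Cd34-positive cells was Hk3 (11.4%) and Hk2 (7.97%). In the 6 sets of aldolase, mutase, enolase, lactate dehydrogenase, NADP isocitrate dehydrogenase and the PDH kinases, 1 gene led in both classes with shares within 6 points of each other. These were Aldoa (96.2% and 99.7%), Pgam1 (91.0% and 91.2%), Eno1 (93.0% and 98.6%), Ldha (96.1% and 99.4%), Idh2 (96.3% and 95.5%) and Pdk3. Pgam2 and Eno2, the muscle and neuronal forms, had reads in 1 Cd34-positive cell each. Eno2 also had a trace in Klf1-high cells (mean 0.0034 CPM per kb). Idh3g held 54.9% and 50.3% of its set and Idh3b 34.2% and 32.1%. With Idh3a they encode subunits of the same enzyme, so these shares are no choice between forms. Suclg2, the GTP-forming ligase subunit, held 53.7% against 46.3% for Sucla2 in Cd34-positive cells and 58.6% against 41.4% in Klf1-high cells.

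**Figure D4:**
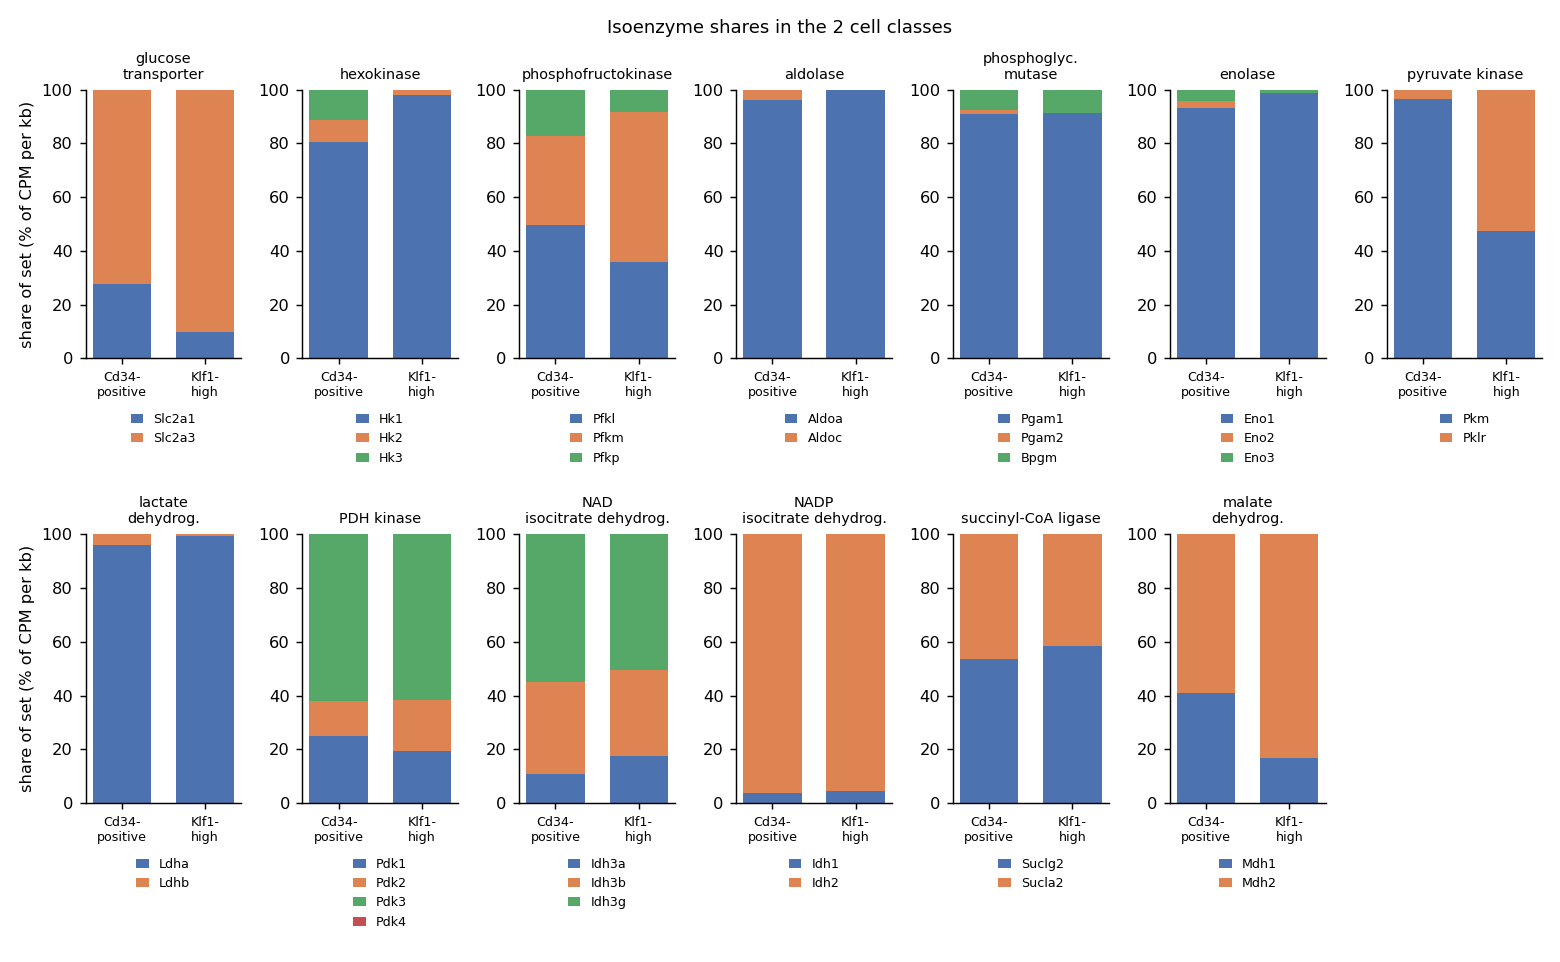
Share of each gene in its set (vertical axes, percent of the mean CPM per kb) in Cd34-positive (left bar) and Klf1-high cells (right bar) for 13 sets. Pyruvate kinase shows the widest gap, with Pkm at 96.7% and 47.5%, and malate dehydrogenase the next, with Mdh2 at 58.9% and 83.1%.

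Genes of the same pathways outside the set were read from lists that also follow the pathway maps. Of 24 further glycolytic genes, 11 had a mean of at least 5 CPM, of which 7 were at least 2-fold higher and 2 at least 2-fold lower in Cd34-positive cells, against 26.3% and 19.1% of all genes. Most of the higher ones came from few cells. Pfkfb3, which makes the activator of phosphofructokinase, had at least 10 CPM in 3 of 13 and 5 of 33 cells (65.8 ± 129.9 CPM and 9.04 ± 25.9 CPM, log2 ratio 2.73), Bpgm in 3 and 7 cells (log2 ratio 1.80) and the lactate exporter Slc16a3 in 3 and 4 cells (2.02). Aldoc (3.82), Eno2 (4.51) and Eno3 (1.28) reached that level in 2, 1 and 1 Cd34-positive cells. Hk3, a hexokinase of myeloid cells, had 787 reads in 4 of 13 Cd34-positive cells and 0 reads in 33 Klf1-high cells, so no fold is given. The 2 lower genes were Pklr and Adpgk, the ADP-dependent glucokinase (34.02 ± 86.8 CPM and 100.4 ± 97.4 CPM, log2 ratio −1.53).

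Of 21 further genes of pyruvate and TCA metabolism, 16 had a mean of at least 5 CPM, of which 0 were 2-fold higher and 6 were 2-fold lower in Cd34-positive cells, against 26.3% and 19.1% of all genes. Me2, the mitochondrial malic enzyme, averaged 28.3 ± 46.6 CPM and 196 ± 120.2 CPM (log2 ratio −2.75). Acly, which splits citrate in the cytosol, averaged 123 ± 109 CPM and 305 ± 162 CPM (−1.30). The PDH component Pdhx (6.92 ± 21.2 CPM and 48.2 ± 50.4 CPM, −2.64), the PDH phosphatase Pdp1 (−2.17) and Aco1 (−1.14) were lower as well, and pyruvate carboxylase (Pcx) had 0 reads in 13 Cd34-positive cells and reads in 8 of 33 Klf1-high cells. The succinate dehydrogenase genes Sdha, Sdhb, Sdhc and Sdhd, whose complex also belongs to the respiratory chain, had ratios of −0.79, −0.34, −0.44 and −0.92. Of 8 further pentose phosphate genes, 6 had a mean of at least 5 CPM, with H6pd higher (110.6 ± 182 CPM and 26.8 ± 51.1 CPM, 2.005) and Shpk (−3.70) and Prps1 (−1.26) lower.

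Of 10 regulators of these pathways, 8 had a mean of at least 5 CPM, with 3 at least 2-fold higher and 1 at least 2-fold lower (26.3% and 19.1% of all genes). Hif1a, the oxygen-regulated subunit of hypoxia-inducible factor, averaged 68.7 ± 64.8 CPM in Cd34-positive cells and 12.8 ± 26.8 CPM in Klf1-high cells (log2 ratio 2.33), with at least 10 CPM in 9 of 13 and 9 of 33 cells. Mycn averaged 193 ± 294 CPM and 15.5 ± 62.9 CPM (3.55), with at least 10 CPM in 7 of 13 and 3 of 33 cells. Egln1, the oxygen sensor that marks HIF for degradation, had a ratio of 1.25 from reads in 2 of 13 and 11 of 33 cells. Nfe2l2, which encodes NRF2, a factor known to act on pentose phosphate genes, averaged 108 ± 125 CPM and 262 ± 156 CPM (−1.27). Myc was abundant in both classes, at 957 ± 617 CPM and 596 ± 237 CPM (0.68), and Epas1 (HIF-2 alpha) had 3 reads in all in each class. Over 49 cells Hif1a and Pkm had a rho of 0.37, which was 0.10 over the 33 Klf1-high cells and −0.14 over the 13 Cd34-positive cells.

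Co-variation of the members of a pathway depended on the measure. Over 49 cells the mean pairwise Spearman rho was 0.06 among glycolytic genes, 0.22 in the PDH group, 0.13 in the TCA cycle and 0.13 in the pentose phosphate group, against a median of 0.05 over all gene pairs. Pearson correlation of log2(CPM + 1) gave 0.07, 0.357, 0.331 and 0.17 for the 4 groups. It was not computed over all gene pairs, so these means have no background beside them. Within the 13 Cd34-positive cells the 4 means were 0.05, 0.10, 0.07 and 0.10 (all pairs 0.01), and within the 33 Klf1-high cells 0.07, 0.09, 0.02 and 0.16 (all pairs 0.01). The TCA value over all cells was thus larger than in either class alone. The highest pairs over 49 cells joined genes with lower means in Cd34-positive cells: Dlat with Cs (rho 0.59), Cs with Dlst (0.58), Pdk3 with Tkt (0.57), Pdhb with Dlst (0.54) and Cs with Mdh2 (0.53). Within Klf1-high cells Dlat with Cs stayed at 0.47 and Cs with Mdh2 at 0.43, and Pfkm with Ldha had the highest rho (0.50). The lowest rho were Pkm with Tkt (−0.53) and Pkm with Mdh2 (−0.49) over 49 cells, and Gpi1 with Mdh2 (−0.58) within Klf1-high cells.

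**Figure D5:**
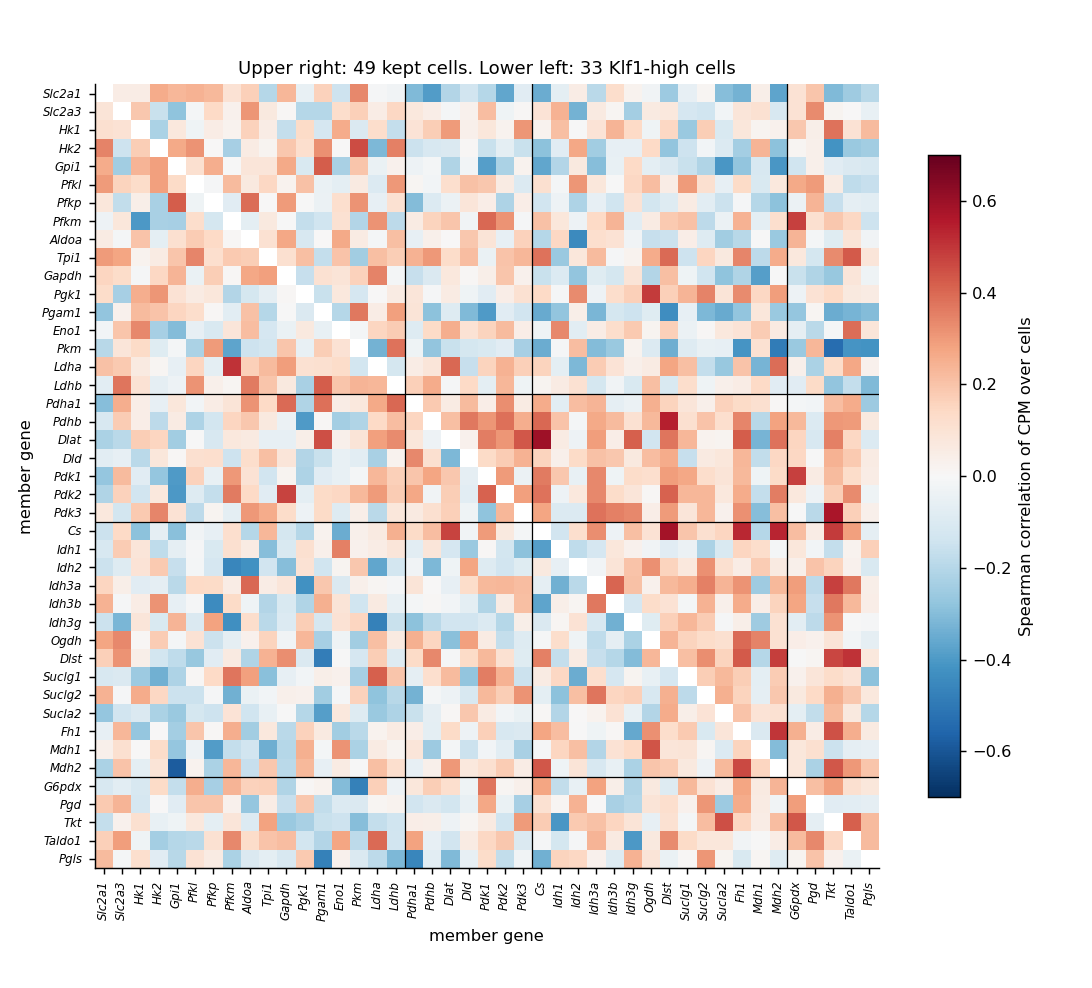
Spearman rho of CPM between each pair of the 43 members (both axes, genes in pathway order, black lines between pathways), over 49 kept cells in the upper right and over 33 Klf1-high cells in the lower left. Red blocks among the PDH and TCA genes of the upper right, such as Dlat with Cs at 0.59, are paler in the lower left, where the same pair is at 0.47.

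Pathway sums moved with depth and with mitosis genes to different degrees. The TCA sum had a rho of 0.53 with total reads and 0.48 with the mitosis sum over 49 cells. These values were 0.29 and 0.05 within Klf1-high cells, and 0.51 and 0.24 within the 13 Cd34-positive cells. The glycolytic sum had a rho of −0.31 with the mitosis sum over 49 cells, −0.43 within Klf1-high cells and 0.24 within the 13 Cd34-positive cells. These correlations in sparse counts describe the cells and were not tested.

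The 3 cells put in neither class are given apart. Cell 2, with 91.0 CPM of Cd34 and 1160 CPM of Klf1, had 476.6 CPM of Cs, 640.4 CPM of Mdh2 and 312 CPM of Pkm, with Pkm at 72.8% of pyruvate kinase per kb. Cell 34, whose 7 myeloid markers summed to 64746 CPM, had 4.97 CPM of Cs and a TCA sum of 568 CPM beside 9897 CPM of glycolytic genes. Cell 9 held 85519 reads and 1527 genes, too few to place low genes.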

How the data were processed

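Smart-seq2 libraries of 52 single bone marrow cells were read from 1 table of expected counts per gene that the authors deposited, of which 4.23% were not whole numbers. Per the submitters' processing notes, trimming used Trim Galore 0.5.0, quantification used Salmon 0.03.1 and the build was GRCm38. Neither the transcript set nor the step from transcripts to genes is given in the sources used here. Each expected count shares reads of near-identical genes by a model, so members were matched to all transcripts with BLAST 2.17.0 (at least 95% identity over 300 bases), and 10 had such a copy with reads in the table. Of 28786 identifiers, 27728 (96.3%) had a symbol in GENCODE M21.

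Expected counts were rounded to whole reads and divided by the cell's total to give CPM. The filter on cells (50000 reads or more, 1000 detected genes or more, mitochondrial share up to 20%) left out cells 5, 10 and 12. No doublet caller was run on 52 wells. A log2 ratio compares class means of CPM with a pseudocount of 1 CPM, so it understates the ratio of low genes, and a gene counted as different past 2-fold where the mean of both class means was at least 5 CPM, which all 43 members met. With 1 sample there is no test, p-value or standard error. Intervals on shares of cells are exact (Clopper-Pearson, 95%). Ratios were tested on simulated counts, and rho on simulated normal values without zeros or differences in depth.

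Named genes were members past 2-fold, members of isoenzyme sets, the most abundant member of each step, and outside genes past 2-fold. Pathway sums, isoenzyme shares and correlations were recomputed under other scalings, filters, thresholds and sets of cells. The members, lists and classes were chosen with earlier results of these data known. Python 3.11.15, numpy 2.4.6, pandas 2.3.3, scipy 1.17.1 and matplotlib 3.10.9 were used.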

Additional observations from a re-analysis of the deposited data

Results flagged for a closer look

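The 3 cells left out also held reads of the 17 glycolytic genes. Cell 5, in which 28.3% of reads were mitochondrial, had 405 such reads (1318 CPM). Cell 10, with 39692 reads in all, had 98 (2469 CPM), and cell 12, with 32439 reads, had 163 (5025 CPM). Each count lies above the 3 reads that a count of 0 allows, and none of these cells enters a class.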

How the results depend on the processing

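Under the alternatives run, no member ratio past 2-fold, pathway ratio or share difference over 10 points changed sign, though Slc2a1 and Ldhb were at 0 by medians. Apart from these, Pfkp summed with its neighbour Pitrm1 had a ratio of −1.01 against 1.56 alone. Of the values for pathway ratios, member counts, isoenzyme shares and co-variation, 339 moved by less than a set spread and 7 by more. That spread was the SD over cells for ratios and shares and the SD over gene pairs for co-variation. For counts the limit was 1.5 times. The SD over single cells is a wide measure for a shift in a class mean, so most values could hardly pass it. With medians over cells in place of means, 4 members were 2-fold higher (12 lower; Slc2a1, Pfkp and Ldhb no longer past it), over all genes 11.4% were higher and 55.8% lower (26.3% and 19.1% by means), and the share differences of Pfkl and Pkm were 52.2 and 98.6 points. With median-ratio size factors from 417 genes, which moved the median log2 ratio of all genes to 0.33, 9 members were 2-fold higher and 4 lower (all genes 31.1% and 15.7%), and Dlat, Idh3a, Mdh2 and Tkt were no longer past it. Pooled reads lost Pdk2, Dlst and Mdh2, thinning lost Mdh2, counting cell 2 in both classes lost Pdk2, and cells with a title code starting with Y alone lost Dlat and Pgd. The median of member log2 ratios gave 0.60 for glycolysis. Pearson correlation of log2(CPM + 1), not computed over all gene pairs, gave a mean of 0.357 in the PDH group and 0.331 in the TCA cycle. The cause was not tested. On leaving out each cell in turn, 7 to 9 members were higher and 7 to 9 lower, and the ratio ranged from 0.15 to 0.25 for glycolysis, −0.66 to −0.44 for the PDH group, −0.62 to −0.47 for the TCA cycle and −0.65 to −0.51 for the pentose phosphate group. Only Pkm, Pgam1, Slc2a3, Cs and Fh1 stayed past 2-fold under all 17 alternatives run on them, leaving out cells, scaling and depth included. The 17 include limits of 50 CPM for Cd34 and 400 CPM for Klf1, which left the classes as they were and could move no value. Other filters on low levels, also among the 17, cannot change the ratio of a gene. The 339 values above include those under the Cd34 and Klf1 limits. The cutoff of 500000 reads, the leave-one-out ranges and the correlations within a class were chosen after seeing the data. No paired analysis was possible because the labels give 1 group. Depth limits the low members: in cells thinned to 85519 reads, 1 read is worth more than 10 CPM.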
